A study of Mus musculus with 2 samples.

Results

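Barcodes selected on UMIs of 4 genes of collecting duct intercalated cells made up 150 of the 7077 that passed quality limits in 2 libraries of injured mouse kidney. At equal depth, other intercalated markers reached 2 UMIs in 66.0% of the control members and 24.3% of the JPI-289 members, or 39.7% of the latter without 40 barcodes that shared another profile. With at least 10 UMIs of the 4 genes it was 62.5% and 54.8%. Intercalated cells are the acid-base cells of the renal collecting duct and connecting tubule. They pump protons with a vacuolar ATPase (V-ATPase) whose kidney subunits are encoded by genes such as Atp6v1g3, Atp6v0d2, Atp6v1b1 and Atp6v0a4, and the forkhead factor Foxi1 is required for their identity. Type A cells secrete acid through a luminal proton pump and export bicarbonate through the anion exchanger Slc4a1. Type B cells secrete bicarbonate through pendrin, encoded by Slc26a4, and take part in salt uptake with the exchanger Slc4a9. The neighbouring principal cells reabsorb sodium and, through Aqp2, water.

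Intercalated cells were examined in single-cell RNA sequencing of kidneys from male C57BL/6 mice aged 9 weeks, killed 24 h after bilateral renal ischemia-reperfusion injury. The JPI-289 group was given the PARP-1 inhibitor JPI-289 intraperitoneally at 100 mg/kg just before blood flow was restored, and the control group was given saline. Each condition was 1 mouse and 1 library, so that mouse, library and treatment cannot be told apart and no difference between the groups could be tested. Both kidneys were injured, and no uninjured kidney was analysed here.

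The members were chosen by measured values. A barcode was a member when it had at least 1000 UMIs (unique molecular identifiers, each standing for 1 captured transcript), at most 50% mitochondrial UMIs, at least 3 UMIs of Atp6v1g3, Atp6v0d2, Foxi1 and Slc26a4 together, and under 0.5% of its UMIs from the thick ascending limb genes Umod and Slc12a1. The rule selected 47 of 3093 barcodes in the control library against 103 of 3984 with JPI-289. The libraries held 38328760 and 35548396 UMIs in all. Another 4 and 2 barcodes reached the 4 genes but were left out by the limit on Umod and Slc12a1. No member barcode sequence occurred in both libraries, and 14 of the passing barcodes did.

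The levels of the rule genes describe the choice and were not tested. A control member had a median of 24 UMIs of the 4 genes, and a JPI-289 member had a median of 4. The highest members had 316 and 112. Just inside the threshold, at 3 UMIs, were 2 control and 38 JPI-289 barcodes. Just outside it, at 2 UMIs, were 23 and 72. In the control library 28 members had 15 UMIs or more, and in the JPI-289 library 27 did. The excess of JPI-289 members thus lay at the low end, between 3 and 5 UMIs, where there were 9 control and 62 JPI-289 members. The median depth of a member was 9578 UMIs in the control library against 2099 with JPI-289, and the median mitochondrial share was 4.94% and 6.03%.

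**Figure D1:**
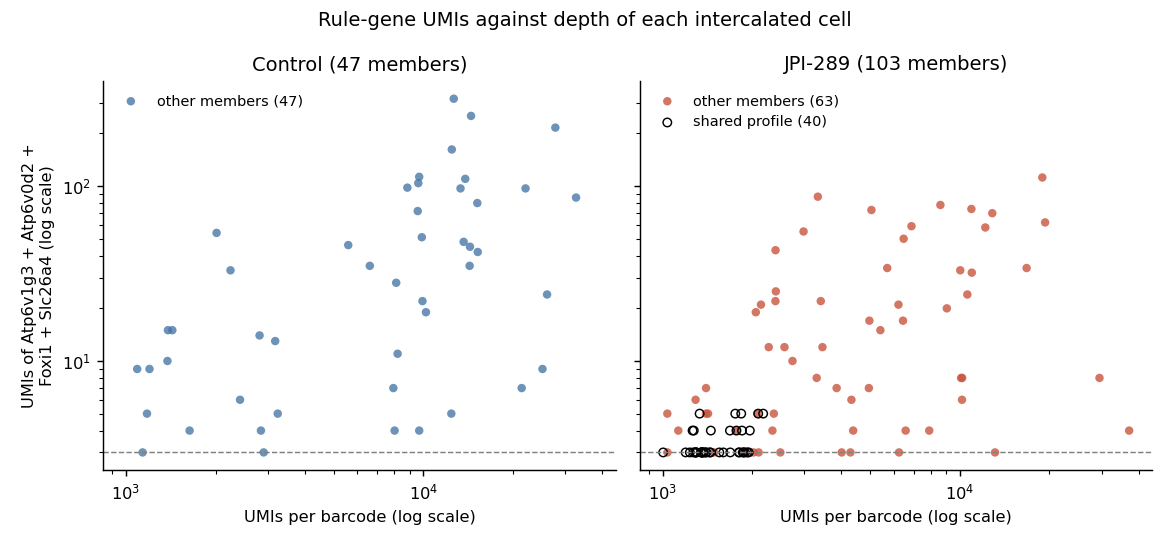
Total UMIs of each member (x axis, log scale) against its UMIs of the 4 rule genes (y axis, log scale) in the control and JPI-289 libraries. Each point is 1 barcode, open circles are the JPI-289 barcodes that shared 1 expression profile, and the dashed line is the threshold of 3 UMIs; the 40 open circles lie between 3 and 5 UMIs of the rule genes at low depth.

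A group of JPI-289 members stood apart before any comparison. In that library 232 passing barcodes, of 1005 to 2181 UMIs, had profiles that differed from each other by about the error of drawing UMIs from a single profile. Their chi-square per gene against the common profile, over 181 genes, had a median of 1.07, where pure sampling gives 1. They were chosen for values under 1.6 against a profile re-estimated from the chosen barcodes. The upper end of their range, 0.765 to 1.52, follows from that choice, which also lowers the median. JPI-289 neutrophils and thick ascending limb cells of like depth, not chosen on this value, had medians of 3.14 and 4.08 against their own common profiles. Against the profile of free RNA, measured in barcodes under 100 UMIs, the same barcodes had a median of 2.23. Each barcode held on average 1.08 UMIs of Atp6v1g3, 3.40 of the principal cell gene Aqp2, 5.34 of the injury gene Sprr2f and 1.30 of the neutrophil gene S100a9.

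Of the 103 JPI-289 members, 40 belonged to this shared profile, which was 38.8% of the members and 13.3% of their UMIs. Their chi-square per gene lay between 0.824 and 1.45. The nearest other member had 2.36, and the other members had a median of 17.1. What these barcodes were was not tested. The search was seeded with members of at most 2500 UMIs and at most 5 rule-gene UMIs. In the control library only 3 members met both limits, and no such profile was sought there. Values are therefore given with and without the 40 barcodes, the latter over 63 JPI-289 members of a median of 4288 UMIs.

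The identity of the members was checked on 17 intercalated cell genes that the rule did not use, listed for this from known markers without Car2 and Tfcp2l1, which other kidney cells also express. At least 2 UMIs of these genes were found in 44 of the 47 control members and in 44 of the 103 JPI-289 members. Those 44 were all among the 63 members outside the shared profile, and 0 of the 40 within it reached 2 UMIs. Members with 15 or more rule-gene UMIs reached it in 27 of 28 control and 26 of 27 JPI-289 cells. Members with 3 to 5 reached it in 8 of 9 control cells and in 10 of 62 JPI-289 cells. Of barcodes with no rule-gene UMI, 19.5% reached it in the control library against 5.12% with JPI-289. Control members were deeper, so each cell was also thinned to 1000 UMIs. Then 66.0% of control members and 24.3% of JPI-289 members reached 2 UMIs, or 39.7% of those outside the shared profile, against 3.10% and 0.692% of barcodes with no rule-gene UMI. Among members with at least 10 rule-gene UMIs it was 62.5% and 54.8%.

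The check does not separate intercalated cells from droplets that also held principal cell RNA. At least 10 UMIs of Aqp2 and Fxyd4 were found in 20 of 47 control members and 15 of 103 JPI-289 members. These genes had more UMIs than the rule genes in 13 control and 40 JPI-289 members. Whether such barcodes were mixed droplets was not tested, and the label of intercalated cell is uncertain for them and for the shared profile.

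Background of the rule genes was low in neutrophils, cells that should lack them. Detection in the members follows from their choice and does not bear on background. Unthinned, 42 of 47 and 96 of 103 members held Atp6v1g3. With each cell thinned to 1000 UMIs, 72.3% of control members and 83.5% of JPI-289 members did. Thinned alike, 0% of 156 control neutrophils and 0.55% of 545 JPI-289 neutrophils held Atp6v1g3. The neutrophils had a median depth of 2138.5 and 2273 UMIs before thinning. No neutrophil, chosen without regard to the rule genes, reached 3 UMIs of the 4 genes in either library.

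Other genes that were higher in the members than in all other passing barcodes of both libraries included Hepacam2, a surface protein of intercalated cells, with a log2 ratio of 6.62 in the library where it was smaller, Atp6v1c2 at 6.43 and Pam, a peptide-amidating enzyme, at 3.69. Ckmt1, the mitochondrial creatine kinase, stood at 3.67, the calcineurin regulator Rcan2 at 3.58 and the potassium channel Kcnq1 at 3.21. The noncoding transcripts 2610016A17Rik and Gm47795 stood at 7.72 and 7.20. These ratios follow from the choice of cells and describe it.

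The upstream sequences of Atp6v1g3, the subunit that carried most of the rule-gene UMIs, and of Atp6v1b1 and Atp6v0a4, subunits outside the rule, are shown from RefSeq. They are the 250 bases before each annotated start in GRCm38.p6, 5′ to 3′ on the strand of the gene. The capitals mark the forkhead core GTAAACA, in either orientation (TGTTTAC), which these windows were searched for. Atp6v1g3 lies at chr1:138273488-138273737 on the plus strand, Atp6v1b1 at chr6:83742767-83743016 on the plus strand and Atp6v0a4 at chr6:38124587-38124836 on the minus strand.
Atp6v1g3: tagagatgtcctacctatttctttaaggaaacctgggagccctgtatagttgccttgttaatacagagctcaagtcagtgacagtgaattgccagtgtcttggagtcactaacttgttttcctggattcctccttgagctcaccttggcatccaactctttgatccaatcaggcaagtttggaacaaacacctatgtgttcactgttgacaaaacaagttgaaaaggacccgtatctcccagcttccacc
Atp6v1b1: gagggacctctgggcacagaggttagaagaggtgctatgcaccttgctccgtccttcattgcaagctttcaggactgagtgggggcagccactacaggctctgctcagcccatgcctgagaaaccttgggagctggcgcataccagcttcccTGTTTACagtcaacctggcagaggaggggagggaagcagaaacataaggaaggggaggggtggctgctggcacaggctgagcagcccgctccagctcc
Atp6v0a4: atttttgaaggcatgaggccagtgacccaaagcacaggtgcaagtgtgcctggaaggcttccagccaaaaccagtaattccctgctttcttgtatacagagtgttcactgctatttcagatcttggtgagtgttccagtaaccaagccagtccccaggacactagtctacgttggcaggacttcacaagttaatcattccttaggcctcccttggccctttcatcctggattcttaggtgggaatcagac
The core was found once, in Atp6v1b1, beginning 98 bases before the start. Of all 32851 promoter windows of this length, 3.17% held it. Of the 23 intercalated cell genes 16 were matched in the promoter table, and 2 of them, Atp6v1b1 and P2ry14, held the core.

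The genes described lie on several chromosomes of GRCm38 in the GENCODE annotation. Atp6v1g3 spans 138273738 to 138289462 of chromosome 1, Atp6v0d2 spans 19876841 to 19922605 of chromosome 4, and Foxi1 spans 34204338 to 34208089 of chromosome 11. Slc26a4 spans 31519827 to 31559969 of chromosome 12. Atp6v1b1 spans 83742990 to 83758855 and Atp6v0a4 spans 38048483 to 38124586, both of chromosome 6. Rhcg spans 79593363 to 79617657 of chromosome 7.

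The share of barcodes that met the rule was 1.52% in the control library (95% exact binomial interval 1.12 to 2.02) and 2.59% in the JPI-289 library (2.12 to 3.13). Without the shared profile the JPI-289 share was 1.58% (1.22 to 2.02), and the intervals overlapped. Counting only members with at least 2 UMIs of the other intercalated markers, the shares were 1.42% and 1.104%, and with at least 10 rule-gene UMIs they were 1.03% and 0.778%, both in the opposite order. These intervals cover counting error only and not the difference between mice. Set against other nephron cells of the same library, there were 97.9 members per 100 principal cells in the control library against 156 with JPI-289, or 95.5 without the shared profile. Per 100 thick ascending limb cells the order was the other way, with 77.0 against 64.4, or 39.4 without the shared profile. The principal cells numbered 48 and 66, and the thick ascending limb cells 61 and 160. Barcodes that reached the 4 rule genes or belonged to the shared profile were left out of both, so members rich in Aqp2 count on 1 side of the ratio only.

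The comparison of JPI-289 with saline in these cells asks how the drug given at reperfusion bears on their transcripts. UMIs of the members were summed per gene and library, 461203 in the control library against 469285 with JPI-289, and the ratio of the summed levels was taken with 0.5 UMIs added. A gene was called when the ratio was at least 2-fold and the gene had 50 UMIs or more over both libraries. Of 2844 genes 8.37% (238) were called higher with JPI-289 and 7.56% (215) were called lower. Without the shared profile it was 8.08% and 7.17% of 2650 genes, and among members with at least 10 rule-gene UMIs it was 6.05% and 6.33% of 1753 genes. The median log2 ratio of all genes was 0.03, and no shift was applied. Each interval given is the 95% counting interval.

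Of the 19 listed markers outside the rule, 12 had enough UMIs, and 8 of these were called lower and 0 higher, with a median log2 ratio of -1.43. Summed, the list had 2006 UMIs in the control members and 1047 in the JPI-289 members, a log2 ratio of -0.96 (-1.07 to -0.85). The same list had a log2 ratio of -1.20 in thick ascending limb cells, and of 0.14 in principal cells, with Car2 the most abundant gene in both. Its 17 genes other than Car2 and Tfcp2l1 were also lower in barcodes with no rule-gene UMI. They had 2960 UMIs in 2903 such control barcodes and 1006 UMIs in 3612 such JPI-289 barcodes, of median depth 2833 and 2597 UMIs. In the members they had 1249 and 590 UMIs. With free RNA subtracted the log2 ratio of the whole list in the members was -0.81. The part of these lower levels elsewhere in the ratio of the members was not tested. Without the shared profile 7 of 12 markers were called lower, and the sum of the list had a log2 ratio of -0.90. Among members with at least 10 rule-gene UMIs the log2 ratio of the sum was -0.51, with 5 of 11 called lower and 1 higher. Slc26a7, an anion exchanger of acid-secreting cells, was listed at 0 UMIs in both libraries.

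Among the tested markers the ammonia transporters showed the widest gap. Rhcg, which moves ammonia across the luminal and basolateral membranes, had 111 UMIs in 26 control members and 10 UMIs in 7 JPI-289 members, that is 241 and 21.3 CPM (UMIs of the gene scaled to 1000000 UMIs of the members). Its log2 ratio was -3.43 (-4.60 to -2.56). Rhbg, the basolateral ammonia transporter, had 113 UMIs in 27 control members and 13 UMIs in 11 JPI-289 members, a log2 ratio of -3.10 (-4.10 to -2.31). Under other settings Rhcg kept at least a 2-fold gap in all 17 in which it had enough UMIs, and Rhbg in all 19. In principal cells Rhcg had a log2 ratio of -1.26 and Rhbg of -0.23.

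Subunits of the V-ATPase differed among themselves. Atp6v1b1, the kidney B1 subunit of the catalytic head, had 486 CPM in control and 158 CPM in JPI-289 members, a log2 ratio of -1.62 (-2.02 to -1.24). It was found in 38 of 47 control and 25 of 103 JPI-289 members, the JPI-289 members being shallower. Among members with at least 10 rule-gene UMIs it was found in 26 of 32 and 21 of 31. The mean of those cells was 579 CPM in control and 605 CPM in JPI-289 members. With at least 10 rule-gene UMIs its log2 ratio was -0.75 and it was no longer called. Atp6v0a4, the kidney a4 subunit of the membrane sector, had 531 and 188 CPM, a log2 ratio of -1.50 (-1.87 to -1.15), and stayed called in all 20 other settings. Atp6v1c2 had 121 and 104 CPM, and its interval of -0.80 to 0.36 held 0. The rule genes Atp6v1g3 and Atp6v0d2, chosen by their counts, had log2 ratios of -0.79 and 0.04. In principal cells, from which barcodes that reached the rule genes were left out, the 5 kidney subunits summed had 198 and 78 UMIs. Atp6v0a4 was the most abundant there, and the log2 ratio was -1.22 (-1.63 to -0.84). That sum cannot be set against the sum in the members, where the rule gene Atp6v1g3 was the most abundant.

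The subunits that all cells use were close to level. Of 17 listed, 15 were tested, with a median log2 ratio of -0.23, and 1 was called higher and 1 lower. Atp6v1b2, the widely expressed B2 subunit that takes the place of B1 elsewhere in the body, was the higher one, with 99.7 CPM in control and 277 CPM in JPI-289 members and a log2 ratio of 1.46 (0.98 to 1.99). Atp6v0e, a small membrane subunit, was the lower one, with 906 and 405 CPM and a log2 ratio of -1.16. Atp6v0c, the proteolipid of the rotor, had 1420 and 1762 CPM. Atp6v1b2 was also higher in JPI-289 principal cells, at a log2 ratio of 1.02.

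Tfcp2l1, a transcription factor that intercalated and principal cells both need, had 928 CPM in control and 305 CPM in JPI-289 members, a log2 ratio of -1.60 (-1.89 to -1.33). It was found in 46 of 47 control members. Foxi1, part of the rule, had 144 and 68 UMIs, a log2 ratio of -1.10 that only describes the members. Car2, the cytosolic carbonic anhydrase, did not differ beyond counting error, with 713 and 669 CPM and an interval of -0.32 to 0.14. Hepacam2 had 143 and 68.2 CPM, a log2 ratio of -1.06 (-1.73 to -0.44), which was -0.90 without the shared profile. Oxgr1, the receptor for 2-oxoglutarate in type B cells, had 42 UMIs against 5, and the vasopressin receptor Avpr1a had 17 against 3. P2ry14, a receptor for UDP-glucose, had 3 UMIs against 1.

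**Figure D2:**
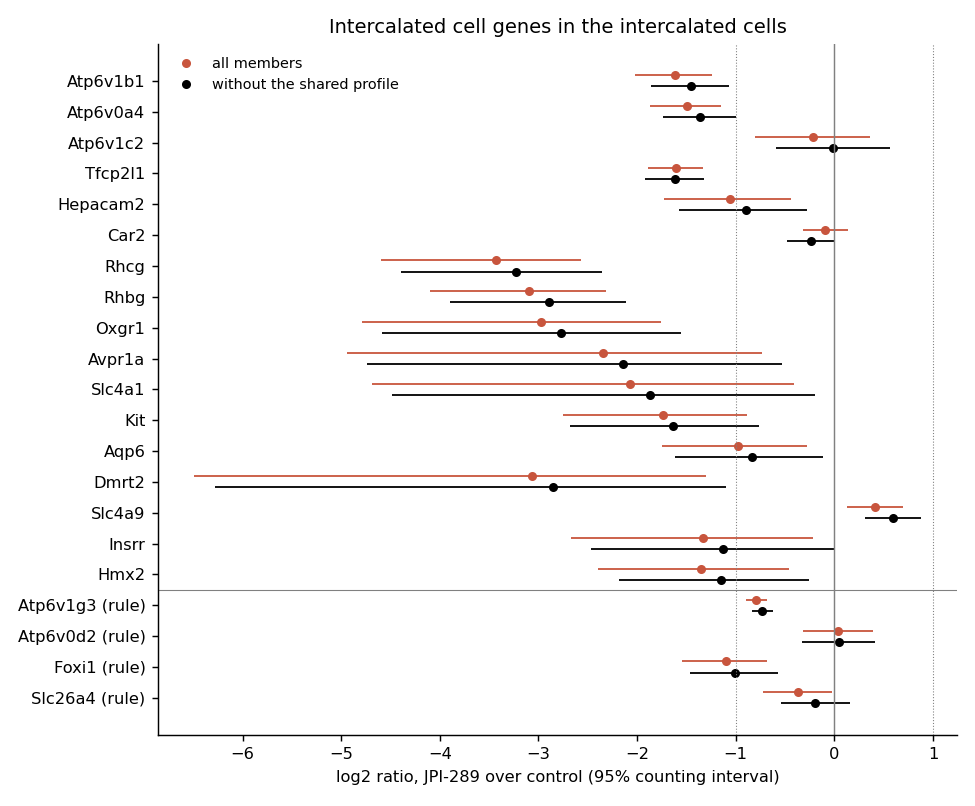
Log2 ratio of JPI-289 over control (x axis) for 21 intercalated cell genes (y axis), with all members in red and without the shared profile in black. Points are ratios of summed UMIs and bars their 95% counting intervals, the dotted lines mark 2-fold, and the 4 genes under the line were used to choose the cells; Rhcg and Rhbg lie furthest left among genes with narrow intervals, and Slc4a9 lies right of 0, a direction that turned with equal weight given to each cell.

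UMIs of type A and type B genes were counted separately in each library. Type A genes (Slc4a1, Kit, Aqp6 and Dmrt2) had 130 UMIs in control members and 44 in JPI-289 members. Type B genes (Slc4a9, Insrr and Hmx2) had 242 and 271. Type B genes made up 65.1% of these UMIs in the control library (95% exact binomial interval 59.97 to 69.9) against 86.0% with JPI-289 (81.7 to 89.7). Without the shared profile the JPI-289 value was 86.4%, and with at least 10 rule-gene UMIs the values were 63.4% and 86.1%. The gap rested on Slc4a9, without which the type B genes made up 31.2% (24.7 to 38.3) and 34.3% (23.2 to 46.9). UMIs of 1 cell are not independent, so these intervals are too narrow for a difference between cells.

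Among the type A genes Kit, a receptor tyrosine kinase, had 47 UMIs in 14 control members and 14 UMIs in 8 JPI-289 members, a log2 ratio of -1.74 (-2.75 to -0.89). One control member held 34.0% of its control UMIs. Aqp6, an aquaporin of intracellular vesicles in type A cells, had 49 and 25 UMIs and a log2 ratio of -0.98. Dmrt2, a transcription factor of type A cells, had 20 and 2 UMIs, and the anion exchanger Slc4a1 had 14 and 3. Each of the 4 genes was lower in the JPI-289 library. Slc4a1 and Dmrt2 stood under the minimum of 50 UMIs.

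Among the type B genes Slc4a9 was the exception to the lower identity genes. It had 397 CPM in control and 528 CPM in JPI-289 members, a log2 ratio of 0.41 (0.13 to 0.70), and was found in 26 and 40 members. Its log2 ratio was 1.01 with at least 10 rule-gene UMIs, but with equal weight given to each cell it was -0.29 and with cells thinned to 1000 UMIs it was -0.16, so its direction depended on the weighting of cells. Hmx2, a homeobox factor, had 36 and 14 UMIs, a log2 ratio of -1.36. Insrr, the alkali-sensing receptor of type B cells, had 23 and 9 UMIs. Pendrin (Slc26a4), part of the rule, had 343 and 264 CPM.

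Counted cell by cell, with pendrin added to the type B genes and at least 3 subtype UMIs required, 8 control members were type A, 19 were type B and 2 were mixed, and 18 had too few UMIs. In the JPI-289 library 2 were type A, 23 were type B and 5 were mixed, and 73 had too few. A cell was given a type when it had over 2 times as many UMIs of that type as of the other, and 9 control and 16 JPI-289 members lay near the minimum, with 2 to 4 such UMIs. Pendrin is a rule gene and no type A gene is, so the rule favoured type B cells, and 4 control and 5 JPI-289 type B cells would not have met it without pendrin. At least 3 UMIs of pendrin and at least 3 of the type A genes occurred together in 2 control members and 1 JPI-289 member. Hepacam2 had 23.7 CPM in the 8 control type A cells and 283 CPM in the 19 control type B cells, and Rhcg had 166 and 239 CPM. Only 2 JPI-289 cells were type A, too few to compare. These 2 also held principal cell RNA, with 153 and 33 UMIs of Aqp2 beside 62 and 8 rule-gene UMIs. Control type A cells held 0 to 280 UMIs of Aqp2. The type A gene Kit had 0 UMIs in the 2 JPI-289 type A cells and 5 in the 23 JPI-289 type B cells.

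**Figure D3:**
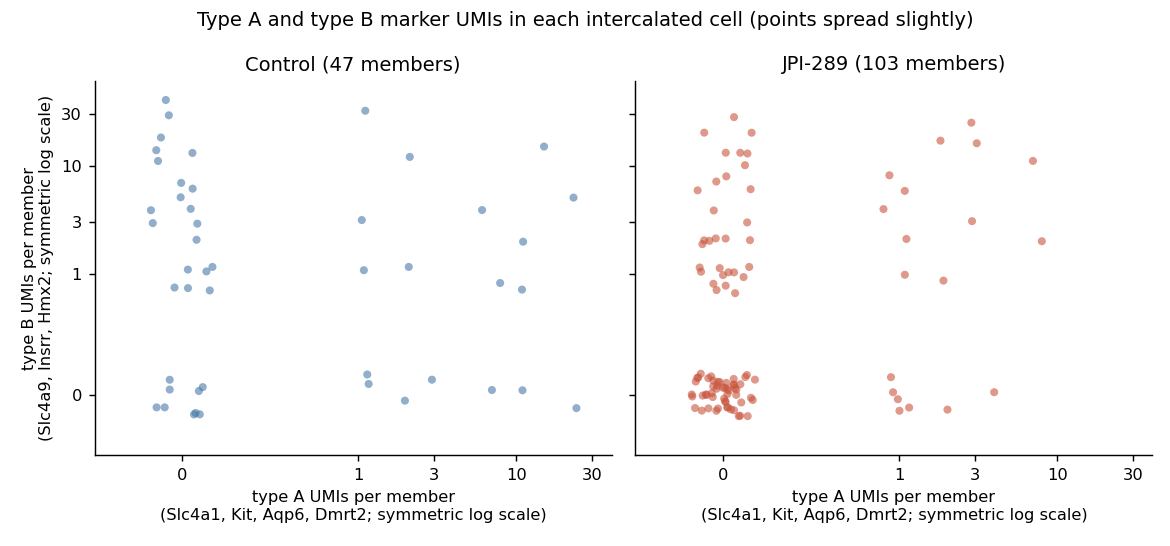
UMIs of the type A genes (x axis) against UMIs of the type B genes (y axis) in each member of the control (left) and JPI-289 (right) libraries, on symmetric log scales. Each point is 1 barcode and is moved slightly to part overlapping points; control members reach high counts along both axes, and in the JPI-289 library few lie far along the type A axis.

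Of 22 acid, bicarbonate and chloride transport genes, 8 of which are in the lists above, 11 were tested, and 4 were called lower and 0 higher, with a median of -0.72. With at least 10 rule-gene UMIs the median was -0.05, with 5 above and 5 below 0, 3 called lower and 1 higher. Car15, a membrane carbonic anhydrase, had 1004 CPM in control and 878 CPM in JPI-289 members, with an interval of -0.39 to 0.00. Car12, another membrane carbonic anhydrase, had 193 and 162 CPM.

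Of 6 sodium pump genes 5 were tested and 1 was called lower, with a median log2 ratio of -0.94, against -0.98 in thick ascending limb cells. Atp1b1, the beta subunit, had 3075 CPM in control and 1443 CPM in JPI-289 members, a log2 ratio of -1.09 (-1.23 to -0.96). In principal cells its log2 ratio was 0.01. Fxyd2, the gamma subunit, had 3281 and 1901 CPM in the members and a log2 ratio of -2.01 in principal cells. With the shared profile and the members with principal cell markers both left out, the log2 ratio of Atp1b1 was -0.53. There 0 of the 3 pump genes tested were called. Without members with markers of other cells the log2 ratio of Atp1b1 was -0.55.

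Of 75 nuclear genes of the respiratory chain and ATP synthase, 68 were tested, and 0 of the 68 lay above 0. Their median log2 ratio was -0.54, and 4 were called lower, a share no larger than the 7.56% of all genes. Atp5g1, a subunit of the ATP synthase rotor, had 1522 and 633 CPM, a log2 ratio of -1.26 (-1.47 to -1.07). It kept a 2-fold gap in 17 of 20 other settings, and stood at -0.96 with at least 10 rule-gene UMIs. Ndufs1, the largest subunit of complex I, had 51 UMIs against 12, a log2 ratio of -2.07. The same 68 genes had a median of -0.14 in principal cells, and 23 of them lay above 0 there, whereas in thick ascending limb cells it was -0.54 with 6 above 0. Genes of the mitochondrial genome were near level, with a median of -0.05 over 12 genes. Of 18 genes of the tricarboxylic acid cycle all were tested, with a median of -0.50. Of these 2 were called lower, against 7.56% of all genes, among them Ogdh, a subunit of the oxoglutarate dehydrogenase complex, at -1.13. With at least 10 rule-gene UMIs the median was -0.28 over 17 genes, with 0 called lower and 1 higher.

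Of 18 genes of the endoplasmic reticulum stress response 9 were tested and 4 were called higher and 0 lower, with a median log2 ratio of 0.96. A gene could pass the minimum through its UMIs in the JPI-289 members alone, so the 9 do not stand for the list. It was 1.05 without the shared profile, 0.56 without the deepest members and 0.31 with the gene minimum lowered to 20 UMIs. Dnajb9, a chaperone of the ER lumen, had 49.9 CPM in control and 190 CPM in JPI-289 members, a log2 ratio of 1.90 (1.25 to 2.66). Atf4, the transcription factor of the integrated stress response, had 95.4 and 264 CPM, a log2 ratio of 1.46 with a lower bound of 0.96. Hspa5, the main ER chaperone, had 171 and 347 CPM, a log2 ratio of 1.02 (0.62 to 1.43). Atf4 was found in 24 of 47 control and 38 of 103 JPI-289 members, and Hspa5 in 26 and 41, the JPI-289 members being shallower. With equal weight given to each cell the log2 ratios were 0.95 and 0.90, short of 2-fold. Hspa5 kept a 2-fold gap in 15 of 19 other settings. One JPI-289 member held 27.0% of the Dnajb9 UMIs of that library, 19.4% of those of Atf4 and 19.0% of those of Hspa5. The chaperones Calr and Pdia6 had log2 ratios of 0.14 and 0.23. Principal cells had log2 ratios of 0.97 for Dnajb9, 1.35 for Atf4 and 0.41 for Hspa5.

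Tubule injury genes went both ways. Of 21 listed, 16 were tested, 4 were called higher and 2 lower, and the median was 0.18. Without the shared profile and the members marked by principal cell genes it was 1.20 over 13 genes, with 8 called higher and 1 lower. In that subset 116 of all genes were called higher and 88 lower. The number of all genes tested there was not recorded, so 8 of 13 cannot be set against a share over all genes. S100a6, a calcium-binding protein of injured and regenerating epithelium, had 544 CPM in control and 2148 CPM in JPI-289 members, a log2 ratio of 1.98 (1.78 to 2.19). One JPI-289 member held 25.8% of its UMIs, and without the deepest 10% of members the log2 ratio was 0.36. Neutrophils express it as well, with a UMI in 72.4% of control and 79.8% of JPI-289 neutrophils thinned to 1000 UMIs. Tnfrsf12a, the receptor for TWEAK, had 117 and 403 CPM, a log2 ratio of 1.77 (1.34 to 2.25). Cldn4, a claudin of the collecting duct, had 1264 and 2600 CPM, a log2 ratio of 1.04 (0.90 to 1.19). It was found in 35 of 47 and 93 of 103 members, and kept a 2-fold gap in 16 of 20 other settings. Krt19 and the integrin Itgb6 were lower, with log2 ratios of -1.93 and -1.26. Spp1, encoding osteopontin, was found in every member, with 18872 and 24333 CPM. Lcn2, encoding neutrophil gelatinase-associated lipocalin, had 2873 and 3124 CPM, with 43.5% of the control UMIs in 1 member.

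Of 21 immediate early genes 18 were tested, 10 lay below 0 and 8 above, 6 were called lower and 1 higher, and the median was -0.28, or -0.86 with at least 10 rule-gene UMIs. Fos had 1604 CPM in control and 560 CPM in JPI-289 members, a log2 ratio of -1.52 (-1.73 to -1.31). Btg2, an antiproliferative gene, had 1206 and 424 CPM, a log2 ratio of -1.51 (-1.75 to -1.27). Maff was the higher one, with 15 UMIs against 61 and a log2 ratio of 1.96. Jund had 1381 and 1709 CPM. In principal cells the log2 ratio of Fos was -0.51, and the median of the list was -0.01.

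Of 19 DNA damage response genes 8 were tested, with 2 called higher, 1 lower and a median of 0.12. Cdkn1a, the cell cycle inhibitor p21, had 226 and 690 CPM, a log2 ratio of 1.61 (1.29 to 1.95), and was found in 30 of 47 and 69 of 103 members. It was also higher in principal cells, at 1.93. Mdm2 had 17 UMIs against 37. Of 14 genes of ADP-ribosylation and NAD metabolism, the drug's own pathway, 1 had enough UMIs, Nampt, with 32 UMIs against 24. The NRF2 target list, of genes that counter oxidative stress, had 1 of 20 called higher, beside 8.37% of all genes. It was Gsta1, a glutathione transferase, with 13 UMIs against 72 and a log2 ratio of 2.40 (1.58 to 3.42). Ribosomal protein genes had a median of 0.00 over 79 genes and proteasome genes 0.22 over 31, with none called.

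Junction genes were split. Of 11 listed, 9 were tested, with 2 called higher and 2 lower. Ocln, encoding occludin, had 12 UMIs against 38, and Cldn4 was the other higher one. Without the shared profile 8 junction genes were tested, with 1 called higher and 2 lower. Cldn8, the partner of Cldn4 in the chloride pathway of the collecting duct, had 167 CPM in control and 55.4 CPM in JPI-289 members, a log2 ratio of -1.57 (-2.29 to -0.93). Cdh16, the kidney cadherin, had 768 and 279 CPM, a log2 ratio of -1.46 (-1.76 to -1.17). Without the shared profile and the principal-marked members Cdh16 was no longer called, at -0.72, and Cldn8 had 11 UMIs against 9.

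Among metabolic genes, those of fatty acid oxidation had a median of -0.68 over 12, with Acadm and Acaa2, enzymes of the mitochondrial beta-oxidation cycle, called lower at -1.07 and -1.20. Glycolysis genes had a median of -0.35 over 13, with none called, and ran from Ldhb at -0.84 to Pkm at 0.50. Heat shock genes had a median of 0.09 over 13, and the 1 called higher was Hspa5. Of 4 tested genes of class I antigen presentation none was called, with H2-D1 at 0.93. The metallothioneins Mt1 and Mt2 had log2 ratios of 0.15 and 0.93, which were -0.40 and -0.35 with at least 10 rule-gene UMIs, 0.26 and 1.05 without the shared profile, and 0.97 and 2.11 with principal-marked members left out as well. Interferon genes were too sparse, with 1 of 19 tested, Ifitm3 at -0.11, and of 24 innate defence genes 4 were tested and none was called.

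**Figure D4:**
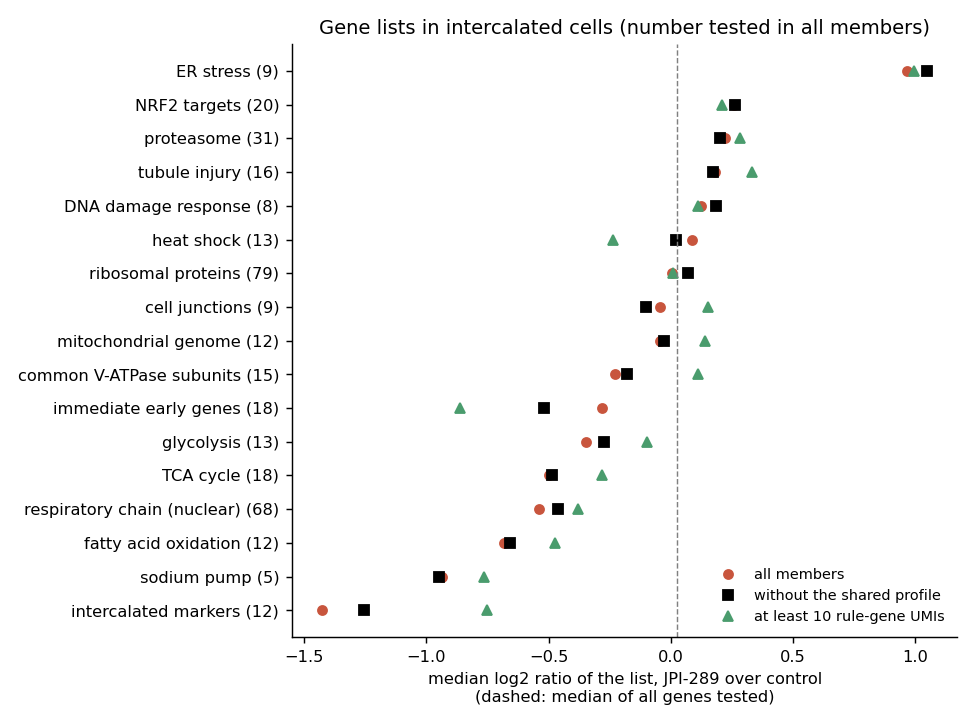
Median log2 ratio of JPI-289 over control (x axis) for 17 gene lists (y axis, with the number of genes tested in all members). Circles are all members, squares leave out the shared profile, triangles keep members with at least 10 rule-gene UMIs, and the dashed line is the median of all genes tested; ER stress genes lie furthest right and intercalated markers furthest left among all members.

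Markers of other cells moved with these values. Principal cell genes had 2802 UMIs in control and 1390 in JPI-289 members, a log2 ratio of -1.04 for their sum, with Aqp2 the most abundant at 1288 and 805 UMIs and none of the 8 at 0. At least 3 UMIs of Aqp2 and Fxyd4 together were found in 22 of 47 control members, in 54 of 103 JPI-289 members and in 21 of the 63 outside the shared profile. Hsd11b2, the enzyme that protects the mineralocorticoid receptor from glucocorticoids, had 457 UMIs against 63, a log2 ratio of -2.87 (-3.29 to -2.50), and Scnn1g, a subunit of the epithelial sodium channel, had 53 against 5. Slc8a1, the sodium-calcium exchanger of the connecting tubule, had 105 against 14. Hsd11b2 was lower in principal cells too, at -1.99.

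With the shared profile and the members marked by Aqp2 and Fxyd4 both left out, 25 control and 42 JPI-289 members remained. There Hsd11b2 had 4 UMIs in each library, Slc8a1 had 6 in control and 9 in JPI-289 members, and Krt19 had 0 and 9, all under the minimum. Clu, encoding clusterin, turned from a log2 ratio of -0.69 to 1.34. Rhbg at -3.27, from 45 and 7 UMIs, Atp6v1b1 at -1.46, Atp6v0a4 at -1.64 and Tfcp2l1 at -1.55 were still called lower, and Rhcg had 21 UMIs against 3, under the minimum. Atp6v1b2 at 0.92 and Cdkn1a at 0.95 were no longer called. The sum of the 19 markers outside the rule stood at -1.10, and the 64 respiratory chain genes tested at a median of -0.71 with 0 above 0. Of these 64 genes 13 were called lower, among 88 called lower of all genes. The number of all genes tested in this subset was not recorded, so 13 of 64 has no share over all genes beside it. Dnajb9 stood at 2.73, Atf4 at 1.48, Hspa5 at 1.64, S100a6 at 3.20, Tnfrsf12a at 2.27 and Fos at -2.54. One member, of 37146 UMIs and 4 rule-gene UMIs, held 16.6% of the summed JPI-289 UMIs of this subset.

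Neutrophil genes were at 0 in all control members, for each of the 5 listed, and had 118 UMIs in JPI-289 members, 11 of them outside the shared profile. S100a9 was the most abundant, with 59 UMIs, of which 4 lay outside the shared profile. Proximal tubule genes had 82 UMIs against 313, and 61.8% of the JPI-289 UMIs of Kap, the most abundant, came from 1 member. Endothelial genes had 6 against 66, with Plvap the most abundant, and Emcn had 93.3% of its 15 UMIs in 1 member. Lymphocyte genes were at 0 in both libraries. The part of these cells in the ratios above was not tested, beyond the values without the marked members.

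Some of the highest ratios came from single barcodes. All 459 JPI-289 UMIs of Slc14a2, a urea transporter of the inner medulla, and all 67 of Bst1 lay in 1 member each, and 77.5% of those of Akap12 did. Pdk4, which restrains pyruvate oxidation, had 27 UMIs in 16 control members and 235 in 54 JPI-289 members, a log2 ratio of 3.07 (2.52 to 3.73), with 49.4% in 1 member, and the log2 ratio was 1.34 with at least 10 rule-gene UMIs. Hist1h2bc, a histone gene, had 19 and 140 UMIs, in 13 and 40 members, a log2 ratio of 2.82 (2.16 to 3.63). Zfp52, a zinc finger gene, had 5 and 62 UMIs and was also higher in principal cells, at 4.17. Plin2, which coats lipid droplets, had 19 and 180 UMIs, a log2 ratio of 3.19, which turned to -4.78 with free RNA subtracted. Its level in free RNA was 345 CPM in the control library against 2743 CPM with JPI-289.

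The lowest ratios, beside Rhcg, Rhbg, Scnn1g, Slc8a1 and Hsd11b2, were those of Scd2, a fatty acid desaturase, with 127 UMIs in 29 control members and 12 in 9 JPI-289 members, a log2 ratio of -3.38 (-4.42 to -2.57). Kcne1, a potassium channel subunit, had 78 UMIs against 9, with 47.4% of the control UMIs in 1 member. Ncoa7, a binding partner of the V-ATPase, had 60 against 8, found in 28 control members and 6 JPI-289 members. Degs2, a sphingolipid enzyme, had 68 against 8, though 0 and 2 of these lay in members outside the shared profile and without principal markers, and Pycard, the inflammasome adaptor, had 50 against 6.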

How the data were processed

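Cells of post-ischemic kidneys were captured with the 10x Genomics Chromium 5′ kit v2 and sequenced on an Illumina HiSeq2500. The authors aligned reads to mm10 with Cell Ranger 5.0.1, per the labels' processing notes, and deposited unfiltered counts: whole-number UMI counts for 32285 genes in 737280 barcodes per library, with no cells called. Groups came from the treatment label. There was 1 library per condition, so no test between groups was made.

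From the deposited counts, members were found by the rule in the report, with no doublet caller. UMIs were summed per gene and library, 0.5 was added, and ratios were taken of sums over all UMIs of the members. Genes with 50 UMIs or more over both libraries were kept and called at 2-fold. Intervals are exact (Clopper-Pearson, or conditional binomial for ratios) at 95% and cover counting error only. Principal cells had at least 10 UMIs of Aqp2 and Fxyd4, thick ascending limb cells at least 0.5% of Umod and Slc12a1, and neutrophils at least 2% of 5 neutrophil genes. Barcodes that reached the rule genes or shared the common profile were left out of the first 2 classes, but not of the neutrophils. The search for the shared profile began with the summed profile of JPI-289 members of at most 2500 UMIs and at most 5 rule-gene UMIs. It was re-estimated until the barcodes under a chi-square per gene of 1.6 no longer changed. Where a symbol had several rows, the first was used.

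The members and all gene lists were chosen with earlier results of these data known, so counts over a list are descriptions. Genes named are those of the intercalated, subtype, rule and kidney V-ATPase lists, the 2 most abundant and the 2 highest and 2 lowest of each other list, the 10 highest and 10 lowest of all, and the 20 furthest above the other barcodes. Car12 and Sprr2f were named beside these after their values were seen, and some genes under the rule are not reported here. The ratios, their intervals and the calls were also run on counts simulated from the members' summed UMIs, which had no spread between cells. Python 3.11.15, numpy 2.4.6 and scipy 1.17.1 were used. In all, 16 alternatives were planned and 4 were added after seeing the data.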

Additional observations from a re-analysis of the deposited data

Results flagged for a closer look

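S100a6 stood out because its summed levels went opposite ways in the intercalated members and in principal cells. Over all members, whose label is uncertain in part, its log2 ratio was 1.98, higher with JPI-289, and in principal cells it was -2.54, where it had 3619 CPM in the control and 622 CPM in the JPI-289 library. The sums rested on few cells. One control principal cell held 16.2% of the UMIs there, and the median principal cell had 399.8 CPM in the control and 329 CPM in the JPI-289 library. The median member had 80.5 CPM in the control and 283 CPM in the JPI-289 library, but 98.9 CPM there without the shared profile, and with at least 10 rule-gene UMIs the medians were 161 and 0 CPM. Of the JPI-289 intercalated members 2 cells held 260 and 234 of 1008 UMIs, and without the deepest 10% of members the log2 ratio was 0.36. The difference between the cell types was not tested, with 1 library per condition.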

How the results depend on the processing

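No paired analysis was possible because each condition had 1 library, and for the same reason no replicate could be left out. In the order higher and lower, 238 and 215 genes were called. Raising the gene minimum to 100 UMIs gave 89 and 81, and lowering it to 20 gave 610 and 633. Thinning each cell to 1000 UMIs gave 29 and 35, with fewer UMIs to pass the minimum. Leaving out the 10% deepest members gave 98 and 119, leaving out members with markers of other cells 128 and 96, requiring 10 rule-gene UMIs 106 and 111, and leaving out both the shared profile and principal-marked members 116 and 88. At least 5 rule-gene UMIs gave 142 and 161, and at least 2 UMIs of other intercalated markers gave 150 and 167. More genes were lower than higher in these, with a minimum of 20 UMIs, thinned cells, 10 rule-gene UMIs or no deepest members, and, at 223 and 229, with ratios centred on the median. The settings that left out or added requirements for members kept fewer cells, and so fewer genes reached the minimum.

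The summed log2 ratio of the intercalated markers (-0.96) was negative under all 20 alternatives. It was -0.67 with 5 and -0.51 with 10 rule-gene UMIs, -0.60 with 2 UMIs of other markers and -0.80 without the deepest members. It was -1.13 and -1.10 without members with markers of other cells and without the shared profile and principal-marked members, and -0.81 with free RNA subtracted. That subtraction turned Plin2 to -4.78. In free RNA the 19 intercalated markers outside the rule had 1220 CPM in the control library and 381 CPM with JPI-289. The estimated free RNA share was 2.71% in the control library and 14.1% with JPI-289. One JPI-289 member held 61.8% of the Kap UMIs, and the part of Kap in that estimate was not tested.

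The control and JPI-289 shares of members were 1.00% and 1.73% from 500 UMIs, 0.808% and 1.23% without members with markers of other cells, and 0.808% and 1.05% without the shared profile and principal-marked members. JPI-289 stood at 1.58% without the shared profile. The order turned, with the control share the higher, at 5 rule-gene UMIs (1.33% and 1.28%), at 2 UMIs of other markers (1.42% and 1.104%) and at 10 rule-gene UMIs (1.03% and 0.778%). The type B share became 73.0% and 91.9% both without members with markers of other cells and without the shared profile and principal-marked members. The causes were not tested. Repeats were taken as close when a count lay within 1.5 times, a list median within 0.25 and any other value within the counting interval of the one reported. For the counts, shares and sums 70 were close and 38 were not, and among single genes and lists 521 were close, 111 were not and 1 called value, Plin2, turned. Values short of 2-fold changed sign in 3 of 20 alternatives for Slc4a9, down to -0.29, in 2 for Clu, up to 1.34, in 2 for the common V-ATPase median, up to 0.11, and in 1 for Spp1, to -0.02. The median member had 9578 UMIs in the control library and 2099 with JPI-289.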
